A study of Mus musculus with 8 samples.

Results

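Dynasore, a small molecule that blocks the GTPase of dynamin and so the pinching off of endocytic vesicles, was given to C2C12 cells, a mouse myoblast line, in a study of how endocytosis shapes the response to bone morphogenetic protein 2 (BMP-2). The nuclear genes for the respiratory chain and the ATP synthase were followed here across the 4 groups of that experiment. They were chosen by annotation symbol: Nduf names for complex I, Sdh names for complex II, Uqcr names and Cyc1 for complex III, Cox4 to Cox8 names for complex IV and Atp5 names for complex V. The rule took 80 of the 18138 array probes, each for a different gene, with 34 in complex I, 3 in complex II, 9 in complex III, 18 in complex IV and 16 in complex V. Cells in all groups were serum-starved for 4 h before the BMP-2 step, with the inhibitor or its solvent added after 2 h. By the study's methods, the BMP-2 medium was also serum-free and still held dynasore or DMSO. The methods give no separate time for the groups without BMP-2. RNA was taken from 2 samples per group. The dynasore groups were BMP-2+Dynasore (40 µM dynasore, with 30 nM BMP-2 for the last 6 h) and Dynasore (40 µM dynasore without BMP-2). The solvent groups were BMP-2+DMSO (0.05% DMSO, with 30 nM BMP-2 for the last 6 h) and DMSO (0.05% DMSO without BMP-2). The labels write the BMP-2 groups as Dynasore+BMP-2 and DMSO+BMP-2. The study's methods call the samples of a group biological duplicates, and the dynasore stock was dissolved in DMSO.

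The respiratory chain passes electrons from NADH (complex I) and succinate (complex II) through ubiquinone to complex III, on to cytochrome c, and at complex IV to oxygen. Complexes I, III and IV move protons out of the mitochondrial matrix, and complex V, the ATP synthase, lets them return while it makes ATP. Most subunits come from nuclear genes and a few from the mitochondrial genome. None of the 13 mitochondrial genes was found on the array under its symbol, so the account covers the nuclear share. Several subunits of complex IV exist as a general isoform and as a second one known from heart and skeletal muscle or from other restricted tissues, which makes a myoblast line a natural place to compare them.

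Each value below is a log2 probe signal after background correction and quantile normalization over the 8 arrays, and probes of different genes are not compared in level. A probe counted as tested when it stood above the array's background on at least 2 of the 8 arrays, which held for 10244 probes and for 71 of the 80 members (33, 3, 7, 13 and 15 in complexes I to V). Ndufs1, Uqcrfs1, Uqcrq, Cox4i2, Cox6b2, Cox7b2, Cox8b, Cox8c and Atp5k did not reach it. Ndufs1, Uqcrfs1 and Uqcrq code for parts that the complexes require, so a dim probe on this array was not read as a missing RNA. Between 67 and 72 members stood above background on each array. Signals of the quantile scale are relative to the other probes of the array, and in bulk RNA fewer expressing cells and less RNA per cell cannot be told apart.

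The BMP-2+DMSO replicate 2 array stood apart from the rest. Its dim probes centred on an intensity of 242, against -1.22 to 45.3 on the other arrays, and it correlated with them at 0.741 to 0.805, whereas the other 7 arrays correlated at 0.930 or more with each other. The study's methods kept 1 of the BMP-2+DMSO arrays for testing, and replicate 2 is the array whose values that study's gene lists carry. Comparisons are therefore given from a limma fit to 7 arrays with that array, and beside it with replicate 1 in its place or with all 8 arrays. Of 6 myoblast markers on the array, 2 were above background on all 8 arrays and 1 on none. Of 5 fibroblast and mesenchyme markers, Col3a1 and Pdgfra were above background on 8 arrays, Col1a1 and Col1a2 on 7 and Thy1 on none. The macrophage (2), endothelial (4) and adipocyte (4) markers were above background on no array, and the same held for 2 of 3 epithelial and 2 of 3 neuronal markers, with Krt8 above on 7 arrays and Tubb3 on 2. The part of such cells or genes in the results was not tested.

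A large part of the respiratory chain was lower in cells given dynasore. In Dynasore against DMSO, 33 of the 71 tested members fell (adjusted p under 0.05), which is 46.5%, beside 19.5% of all tested probes called lower. Of the members, 2 rose (Cox6a2 and Cox7a1), beside 17.9% of all tested probes called higher. The median change of the members was -0.36 on the log2 scale and that of all tested probes was -0.003, and 63 of 71 members lay below 0. Both Dynasore arrays lay below both DMSO arrays for 59 of 71 members (83.1%), beside 36.5% of all tested probes. Bright probes moved down somewhat more often than dim ones on these arrays. Among 1204 probes with a mean log2 signal above 11, 29.2% were called lower (median -0.09). Of the 49 members in that range 57.1% were (median -0.37). Both Dynasore arrays lay below both DMSO arrays for 93.9% of those 49 members, beside 47% of the 1204 probes. At 11 or less the shares were 59.1% of 22 members and 35.1% of 9040 probes, so the dimmer members stood out less.

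**Figure D1:**
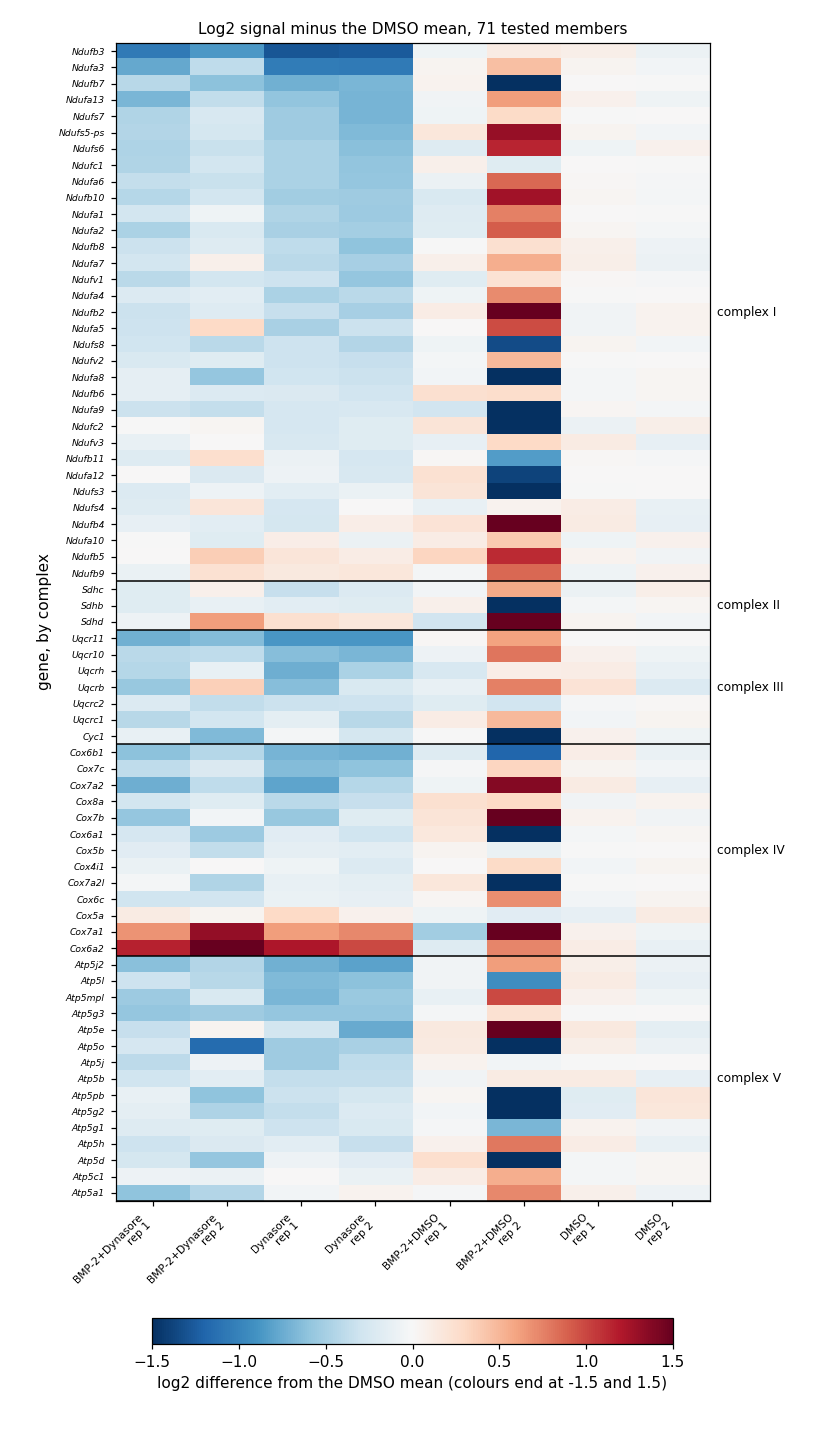
Log2 signal of each of the 71 tested members (rows, by complex) on each of the 8 arrays (columns) minus the mean of its DMSO arrays, with blue for lower and red for higher and the colours ending at -1.5 and 1.5. The 4 dynasore arrays are mostly pale to mid blue except for Cox6a2 and Cox7a1, and BMP-2+DMSO replicate 2 holds both the deepest blue and the deepest red.

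These calls depend on how the spread is estimated. In the fit to all 8 arrays, in which the disagreement between the BMP-2+DMSO arrays enters the error, 1 member was lower (Ndufb3, beside 1.54% of all tested probes) and 0 were higher (limma, beside 1.67% of all tested probes), with 15 lower and 1 higher at an unadjusted p under 0.05. The log2 differences themselves are the same in both fits. With DMSO replicate 1 left out as well, the median of the members was -0.35, beside -0.003 for all tested probes.

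Complex I, the NADH dehydrogenase, had 18 of 33 tested members lower and 0 higher in Dynasore against DMSO by limma (22 lower and 0 higher at an unadjusted p under 0.05), with a median of -0.42. The largest change was in Ndufb3, an accessory subunit of the membrane arm. Its log2 signal was 10.23 and 10.42 in BMP-2+Dynasore, 9.999 and 10.03 in Dynasore, 11.22 and 11.41 in BMP-2+DMSO, and 11.37 and 11.20 in DMSO. All 4 dynasore arrays lay below all 4 arrays without dynasore, replicate 2 of BMP-2+DMSO included. The difference between Dynasore and DMSO was -1.27 ± 0.12 (SE, n = 2 each, adjusted p = 1.7e-05), a signal 58.6% lower, and it passed with all 8 arrays as well (adjusted p = 0.024).

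Ndufa3, a small membrane-arm subunit, gave 10.57 and 10.95 in BMP-2+Dynasore, 10.28 and 10.27 in Dynasore, 11.38 and 11.79 in BMP-2+DMSO, and 11.37 and 11.30 in DMSO. The dynasore arrays were again the lower 4 of the 8, with those that also had BMP-2 between the Dynasore and the DMSO arrays. The difference from DMSO was -1.06 ± 0.13 in Dynasore (SE, n = 2 each, adjusted p = 0.00013). Ndufb7, another membrane-arm subunit, fell by 0.70 ± 0.13, and Ndufa13 (also known as Grim19), which sits in the same arm, fell by 0.64 ± 0.12.

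By position in the complex, 4 of 5 core subunits, 4 of 9 accessory subunits of the matrix arm and 8 of 17 of the membrane arm were lower. The core subunits carry the flavin and the iron-sulphur clusters. Ndufs7, which holds the last cluster before ubiquinone, gave 11.73 and 11.57 in Dynasore against 12.26 and 12.27 in DMSO, and Ndufv1, the flavin-binding subunit, gave 12.66 and 12.40 against 12.997 and 12.96. Ndufs8 (-0.37 ± 0.10) and Ndufv2 (-0.33 ± 0.09) were the other two. Ndufs3 was the core subunit that did not pass, at -0.13 ± 0.10. For all 5 core subunits the 4 dynasore arrays lay below the DMSO arrays and BMP-2+DMSO replicate 1.

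A pair of complex I names stand for something else. Ndufa4, first counted with complex I and since placed in complex IV, gave 13.68 and 13.74 in Dynasore against 14.14 and 14.16 in DMSO (-0.44 ± 0.08, adjusted p = 0.0016). Ndufs5-ps is annotated as a pseudogene of the subunit gene Ndufs5, and gave 11.35 and 11.22 in Dynasore against 11.92 and 11.85 in DMSO (-0.60 ± 0.11, adjusted p = 0.0014). Which RNA of that pair the probe measured was not tested. The 3 complex I members above 0 were Ndufb9 (0.16 ± 0.16), Ndufb5 (0.15 ± 0.16) and Ndufa10 (0.01 ± 0.11), none of which passed.

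Complex II, succinate dehydrogenase, stands in both the respiratory chain and the tricarboxylic acid cycle. Its 3 members on the array did not pass in Dynasore against DMSO by limma (0 lower and 0 higher also at an unadjusted p under 0.05). Sdhb, the iron-sulphur subunit, gave 10.16 and 10.14 in Dynasore against 10.29 and 10.35 in DMSO, a difference of -0.17 ± 0.12. The membrane anchors gave -0.27 ± 0.13 (Sdhc) and 0.21 ± 0.22 (Sdhd).

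Complex III, which hands electrons from ubiquinol to cytochrome c, had 4 of 7 tested members lower and all 7 below 0, with a median of -0.43. Uqcr11, one of its small subunits, gave 12.87 and 12.95 in BMP-2+Dynasore, 12.72 and 12.72 in Dynasore, 13.61 and 14.19 in BMP-2+DMSO, and 13.60 and 13.58 in DMSO. The 4 dynasore arrays lay below the other 4. It was lower by 0.87 ± 0.09 on the log2 scale in Dynasore (adjusted p = 2.5e-05), a signal 45.3% lower. Among the other small subunits, Uqcr10 gave 12.85 and 12.79 in Dynasore against 13.54 and 13.42 in DMSO, and Uqcrh, the hinge protein at cytochrome c1, gave 13.21 and 13.47 against 14.06 and 13.83. The core protein Uqcrc2 fell by 0.32 ± 0.10 (adjusted p = 0.023), while Uqcrc1 (-0.28 ± 0.11) and cytochrome c1 itself (Cyc1, -0.15 ± 0.18) did not pass.

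Complex V had 7 of 15 tested members lower, 0 higher by limma (8 and 0 at an unadjusted p under 0.05), and a median of -0.36. All 3 small membrane subunits fell. Atp5j2 (subunit f) gave 13.68 and 13.88 in BMP-2+Dynasore, 13.59 and 13.51 in Dynasore, 14.26 and 14.94 in BMP-2+DMSO, and 14.40 and 14.22 in DMSO. Both Dynasore arrays were below every array without dynasore, and the difference from DMSO was -0.76 ± 0.10 (adjusted p = 0.00016). Atp5l (subunit g), which with its neighbours shapes synthase dimers, fell by 0.64 ± 0.11, and Atp5mpl fell by 0.62 ± 0.12.

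The c ring is the rotor that protons turn, and 3 genes code for the same mature c subunit. Atp5g3 gave 14.59 and 14.64 in BMP-2+Dynasore, 14.59 and 14.59 in Dynasore, 15.14 and 15.40 in BMP-2+DMSO, and 15.17 and 15.18 in DMSO. These were among the tightest values of the set, with a difference of -0.59 ± 0.07 in Dynasore (adjusted p = 0.00014). Atp5g1 also fell (-0.27 ± 0.10, adjusted p = 0.044), and Atp5g2 was at -0.28 ± 0.15 and did not pass. In the F1 head and central stalk, where ATP is made, 1 of 5 tested subunits was lower: the catalytic subunit Atp5b at -0.36 ± 0.09, beside Atp5c1 at -0.05 ± 0.09, Atp5a1 at 0.00 ± 0.15 and Atp5d at -0.12 ± 0.12. Atp5e was above background on both DMSO arrays and on neither Dynasore array. Its signal was at least 1.16-fold lower in Dynasore against the background limit, and its fit did not pass (adjusted p = 0.097). In the peripheral stalk 1 of 4 was lower (Atp5j, -0.46 ± 0.12).

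Complex IV, cytochrome c oxidase, split by isoform. Its general subunits had 4 of 10 lower and 0 higher (limma), and the restricted isoforms that were tested, Cox6a2 and Cox7a1, were both higher. Over all 13 tested members the median was -0.15. Among the general subunits, Cox6b1 gave 12.44 and 12.41 in Dynasore against 13.23 and 13.04 in DMSO (-0.71 ± 0.11, adjusted p = 0.00044), and Cox7c gave 13.01 and 13.06 against 13.69 and 13.62 (-0.62 ± 0.09, adjusted p = 0.00039). Cox8a fell by 0.38 ± 0.09. Cox4i1 (-0.14 ± 0.09), Cox5a (0.18 ± 0.11), Cox5b (-0.15 ± 0.09) and Cox6c (-0.11 ± 0.09) did not pass, nor did Cox7a2l, a supercomplex assembly factor rather than a subunit (-0.13 ± 0.14).

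Cox6a2 is the heart and muscle form of subunit 6a. Its log2 signal was 7.24 and 7.81 in BMP-2+Dynasore, 7.29 and 7.08 in Dynasore, 5.89 and 6.83 in BMP-2+DMSO, and 6.20 and 5.98 in DMSO. The 4 dynasore arrays lay above the other 4. It was above background on both arrays of each dynasore group and on 1 of 2 DMSO arrays, so its difference of 1.10 ± 0.21 in Dynasore (adjusted p = 0.0018) rests on a weak DMSO signal. Between background corrections, normalizations and left-out arrays the same difference ran between 0.83 and 2.44, which is a change of over 1.5 times. The liver-type partner Cox6a1 gave 13.49 and 13.36 in Dynasore against 13.62 and 13.69 in DMSO (-0.24 ± 0.11, not passing).

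Cox7a1, the heart and muscle form of subunit 7a, gave 7.78 and 8.43 in BMP-2+Dynasore, 7.73 and 7.82 in Dynasore, 6.58 and 8.91 in BMP-2+DMSO, and 7.17 and 7.04 in DMSO. The dynasore arrays lay above both DMSO arrays, while the BMP-2+DMSO arrays were the lowest and the highest of the 8. The difference from DMSO was 0.68 ± 0.20 in Dynasore (adjusted p = 0.024), and leaving out any of the 4 arrays of that comparison ended the call (adjusted p between 0.089 and 0.154). Its general partner Cox7a2 moved the other way, with 7.23 and 7.59 in Dynasore against 8.15 and 7.89 in DMSO (-0.61 ± 0.19, adjusted p = 0.027). The difference between the paired isoforms' changes was not tested. The other restricted isoforms among the members, Cox4i2, Cox6b2, Cox7b2, Cox8b and Cox8c, were not tested for want of signal.

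**Figure D2:**
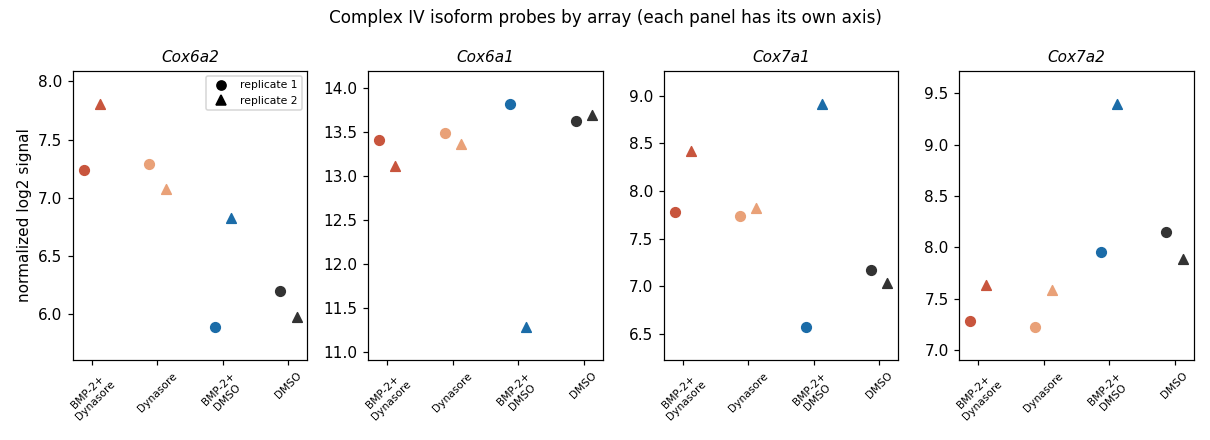
Normalized log2 signal of the subunit 6a and 7a isoform probes on the 8 arrays (circles, replicate 1; triangles, replicate 2), one panel per gene with its own vertical axis. Cox6a2 and Cox7a1 lie higher on the dynasore arrays than on the DMSO arrays, Cox7a2 lies lower, and the BMP-2+DMSO triangles stand far from their circles.

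The promoters of the members were read for short motifs. RefSeq promoters of the mouse build GRCm38.p6 were matched for 64 of the 80 members, and the 250 bases before the start were searched on both strands for the letters of sites known from genes of this kind: NRF1 (GCGCANGCG), ETS factors such as GABP (CCGGAAG), YY1 (ATGGCGG), ERR (AAGGTCA), the hypoxia-inducible factors (ACGTG) and the E-box of MyoD (CAGCTG). The ETS letters stood in 11 of 64 members (17.2%), against 7.07% of 27025 promoters of all genes, and the NRF1 letters in 10 (15.6%), against 5.33%. The hypoxia letters stood in 13 (20.3%, against 16.5% of all), the E-box in 5 (7.81%, against 12.7%), the ERR letters in 4 (6.25%, against 4.04%) and the YY1 letters in 2 (3.12%, against 2.2%). Among members called lower in Dynasore against DMSO, the ETS letters were in 5 of 29 promoters and the NRF1 letters in 2 of 29, and among the other tested members in 6 and 7 of 30. The hypoxia letters were in 8 of the 29 and 4 of the 30. These are letter matches and say nothing of binding.

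The runs below are shown for the largest fall in complexes I, III and IV, for Atp5l, whose window held the most kinds of motif among those shown, and for the riser Cox7a1. Each is the stretch before the start, 5′ to 3′ on the gene's strand, with matched letters in capitals.
Ndufb3 (chr1:58586147-58586396, plus strand): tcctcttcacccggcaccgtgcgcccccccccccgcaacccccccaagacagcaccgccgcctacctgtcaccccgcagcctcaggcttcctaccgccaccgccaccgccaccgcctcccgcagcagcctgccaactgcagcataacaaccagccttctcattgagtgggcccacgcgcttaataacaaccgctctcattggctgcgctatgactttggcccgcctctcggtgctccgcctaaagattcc
Uqcr11 (chr10:80406822-80407071, minus strand): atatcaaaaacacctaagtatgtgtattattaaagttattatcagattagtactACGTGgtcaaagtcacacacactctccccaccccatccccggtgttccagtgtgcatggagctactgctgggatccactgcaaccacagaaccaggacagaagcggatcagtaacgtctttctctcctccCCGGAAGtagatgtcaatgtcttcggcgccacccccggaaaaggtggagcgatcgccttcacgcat
Cox6b1 (chr7:30626115-30626364, minus strand): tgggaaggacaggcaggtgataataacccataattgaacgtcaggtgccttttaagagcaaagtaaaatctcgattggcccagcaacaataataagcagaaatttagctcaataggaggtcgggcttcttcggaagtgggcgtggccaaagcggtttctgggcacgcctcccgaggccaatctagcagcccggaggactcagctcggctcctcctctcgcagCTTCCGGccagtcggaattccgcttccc
Atp5l (chr9:44920743-44920992, minus strand): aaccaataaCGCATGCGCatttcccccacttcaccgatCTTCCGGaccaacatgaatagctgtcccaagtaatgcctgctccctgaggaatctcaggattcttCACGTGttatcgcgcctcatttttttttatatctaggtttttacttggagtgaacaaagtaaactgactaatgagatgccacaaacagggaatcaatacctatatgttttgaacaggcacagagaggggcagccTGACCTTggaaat
Cox7a1 (chr7:30183921-30184170, plus strand): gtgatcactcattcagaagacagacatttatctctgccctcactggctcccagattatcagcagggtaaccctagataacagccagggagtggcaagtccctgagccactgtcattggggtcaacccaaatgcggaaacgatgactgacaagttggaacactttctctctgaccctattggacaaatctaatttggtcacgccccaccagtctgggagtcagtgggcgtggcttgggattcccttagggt
The Ndufb3 and Cox7a1 windows held none of the searched letters. The same was true of Atp5j2, the largest fall in complex V, whose window is not shown. Uqcr11 held the ETS letters starting 66 bases before its start and the hypoxia letters at 196, and Cox6b1 held the ETS letters at 28. Atp5l held the NRF1 letters at 241, the ETS letters at 212 and the ERR letters at 13, and its hypoxia letters, at 147 and 146, overlap as both strands of a single stretch.

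With BMP-2 on top of dynasore the respiratory chain was also low. In BMP-2+Dynasore against DMSO, 30 members fell and 2 rose (again Cox6a2 and Cox7a1), beside 18.9% of all tested probes called lower and 19.5% called higher, with a median of -0.27. The DMSO arrays are shared with the comparison above, so the pair of comparisons is not independent. By complex, 14 of 33 members of complex I, 0 of 3 of complex II, 4 of 7 of complex III, 6 of 13 of complex IV and 6 of 15 of complex V were lower (limma). Ndufb3 was at -0.96 (adjusted p = 0.00011), Uqcr11 at -0.68 (adjusted p = 0.00013), Atp5g3 at -0.56 (adjusted p = 0.00018) and Cox6b1 at -0.52 (adjusted p = 0.0031). Cox6a2 was at 1.44 and Cox7a1 at 1.00.

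Some members passed here and not in Dynasore alone. Cox6a1 was at -0.40 (adjusted p = 0.016), Cox5b at -0.27, Cox6c at -0.29 and Atp5d at -0.42. Against the DMSO mean, replicates 1 and 2 of BMP-2+Dynasore lay at -0.25 and -0.55 for Cox6a1 and at -0.27 and -0.58 for Atp5d. For Cox5b they lay at -0.17 and -0.37, and for Cox6c at -0.30 and -0.28. Cox6a1 (-2.37) and Atp5d (-4.72) were also far below DMSO on BMP-2+DMSO replicate 2, and a shared array pattern was not tested. Atp5a1, the other large subunit of the F1 head, gave 7.70 and 7.86 in BMP-2+Dynasore against 8.38 and 8.23 in DMSO (-0.52, adjusted p = 0.017), with 8.26 and 8.36 in Dynasore. In the direct comparison of the dynasore groups none of these 5 passed after adjustment, which does not show that they were alike. The differences there (BMP-2+Dynasore minus Dynasore) were -0.53 ± 0.15 for Atp5a1, whose arrays did not overlap (unadjusted p = 0.0048, adjusted p = 0.20 by limma), -0.30 ± 0.12 for Atp5d (unadjusted p = 0.033), -0.18 for Cox6c, -0.16 for Cox6a1 and -0.12 for Cox5b.

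The counts in this comparison were less steady. With all 8 arrays 0 members were called (limma, beside 3.55% of all tested probes), with 1 higher and 4 lower at an unadjusted p under 0.05. Fewer members were called lower with either DMSO array left out. Without DMSO replicate 1 their share was below that of all tested probes, and without DMSO replicate 2 it was close to it. The excess of lower members in this comparison therefore rests on both DMSO arrays. The median of the members was -0.26 without replicate 1, beside -0.004 for all tested probes, and -0.30 without replicate 2, beside -0.01.

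**Figure D3:**
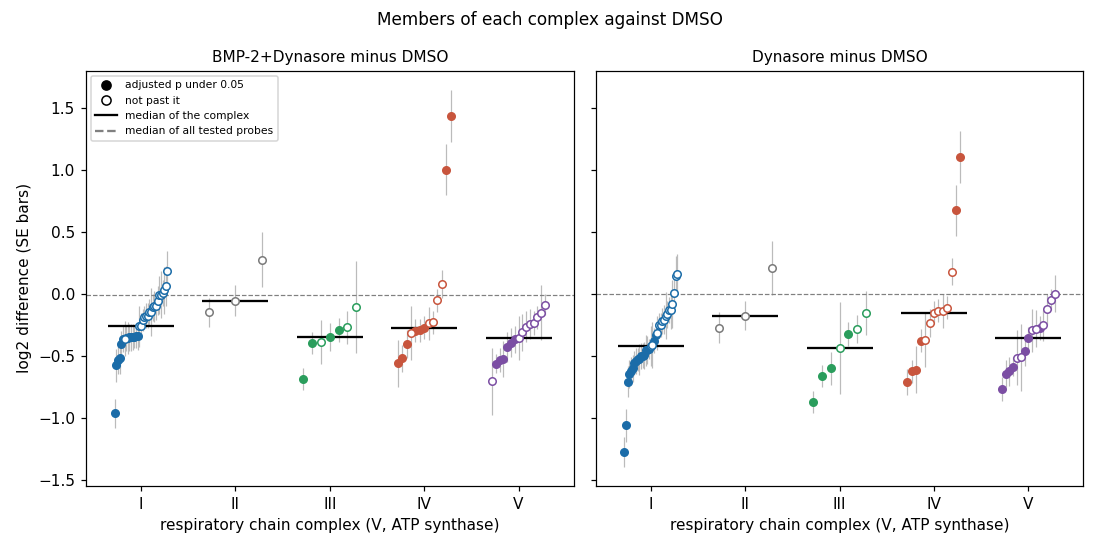
Log2 difference of each tested member from DMSO in BMP-2+Dynasore (left) and Dynasore (right), by complex, with SE bars, filled points for an adjusted p under 0.05, a black line at each complex's median and a dashed line at the median of all tested probes. In Dynasore the medians of complexes I, III and V lie at -0.42, -0.43 and -0.36 and those of II and IV at -0.17 and -0.15, and the top points of complex IV are Cox6a2 and Cox7a1.

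Taken over both dynasore groups at once, 43 of 71 members (60.6%) lay lower on all 4 dynasore arrays than on the DMSO arrays and BMP-2+DMSO replicate 1, beside 22.9% of all tested probes. In the other direction 2 members did so (Cox6a2 and Cox7a1), beside 22.9% of all tested probes as well. With a mean log2 signal above 11, the lower share was 71.4% of 49 members, beside 33.6% of such probes. At 11 or less it was 36.4% of 22 members, beside 21.5%. The 43 held 20 of 33 members of complex I, 1 of 3 of complex II, 4 of 7 of complex III, 8 of 13 of complex IV and 10 of 15 of complex V.

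BMP-2 in the absence of the inhibitor was judged by a pair of arrays that disagree. On BMP-2+DMSO replicate 1 the members sat close to DMSO: 70 of 71 were within 0.5 of the DMSO mean on the log2 scale, with a median of -0.02. On replicate 2, by contrast, 22 were within that distance, 16 lay more than 1 below (22.5%) and 11 more than 1 above (15.5%), and the median was 0.30. All tested probes on that array were spread likewise, with 20.4% more than 1 below and 21.6% more than 1 above, so the spread is no result about the members. With replicate 1 in the fit 0 members were called by limma (1 at an unadjusted p under 0.05), beside 4.6% of all tested probes, and with all 8 arrays 0 were called (0 at an unadjusted p under 0.05), beside 0.205%. With replicate 2 in the fit 37 members were higher and 20 lower, beside 41.3% and 28.1% of all tested probes. That background turned with the scaling: 4230 probes were higher and 2881 lower after quantile normalization, 6150 and 1843 on the authors' values, and 2278 and 3339 once array medians were set equal. The members gave 30 higher and 21 lower on the authors' values and 35 and 19 with equal medians.

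The members at the bottom of replicate 2, named after their values were seen, were Atp5pb, Atp5o, Ndufc2 and Cyc1. Atp5pb, subunit b of the peripheral stalk, gave 11.96 and 6.30 on the BMP-2+DMSO arrays against 11.75 and 12.11 in DMSO. Cyc1 gave 11.21 and 5.70 against 11.28 and 11.15, and Ndufc2 gave 12.67 and 6.88 against 12.39 and 12.57. Each of these genes sat with DMSO on replicate 1 and more than 5 log2 units below it on replicate 2, so no statement on BMP-2 alone rests on them.

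**Figure D4:**
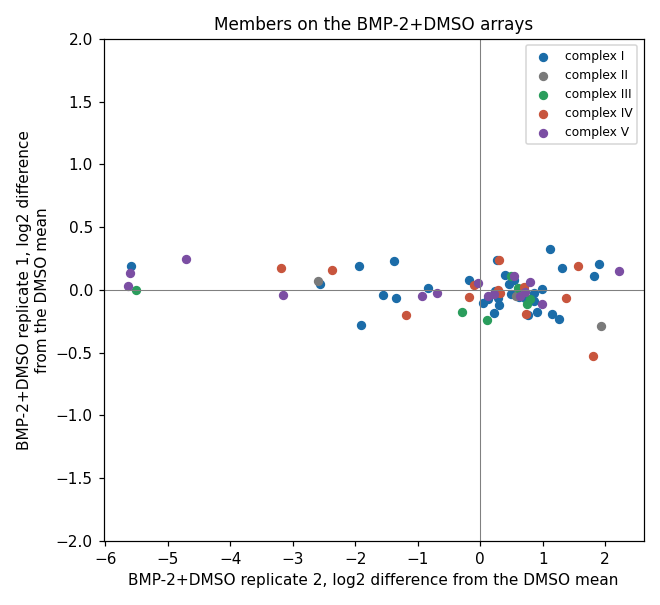
Log2 difference of each of the 71 tested members from the DMSO mean on BMP-2+DMSO replicate 2 (horizontal) and replicate 1 (vertical), coloured by complex. Replicate 1 stays between -0.52 and 0.32, while replicate 2 spreads between -5.64 and 2.22.

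The addition of dynasore to BMP-2 depends on the same arrays. In BMP-2+Dynasore against BMP-2+DMSO, the fit with replicate 1 called 14 members lower and 2 higher (Cox6a2 and Cox7a1), beside 13.5% of all tested probes called lower and 15.5% called higher, with a median of -0.28. By complex the 14 were 7 in I, 2 in III, 2 in IV and 3 in V. With replicate 2 the counts were 43 lower and 20 higher, beside 38.4% and 28.7%. Here too the scaling turned the background, with 2945 probes higher and 3937 lower after quantile normalization and 3407 and 2171 with equal medians, while the members had 40 lower and 18 higher. With all 8 arrays 2 members were lower, beside 1.84% of all tested probes.

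Between the dynasore groups BMP-2 changed no member past the threshold: 0 were called by limma in BMP-2+Dynasore against Dynasore, beside 0.879% of all tested probes. At an unadjusted p under 0.05 (limma) 13 were higher and 2 lower (Atp5a1 and Atp5d). These unadjusted counts have no share of all tested probes beside them and are no result about the members. The median was 0.12 and 51 of 71 members were above 0. Both BMP-2+Dynasore arrays lay above both Dynasore arrays for 32 members (45.1%), beside 23.8% of all tested probes, and 20 of these were in complex I. Ndufa3, for example, gave 10.57 and 10.95 in BMP-2+Dynasore against 10.28 and 10.27 in Dynasore (0.48, adjusted p = 0.19).

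BMP-2+Dynasore replicate 2 bears on that shift. Its dim probes centred on 45.3, the highest after BMP-2+DMSO replicate 2, and it leaned in the direction of that array. Of the 16 members far below DMSO on BMP-2+DMSO replicate 2, 12 were lower on BMP-2+Dynasore replicate 2 than on replicate 1, and of the 11 far above, 10 were higher. Over all tested probes the replicate deviations of these groups correlated at 0.502, so the lean was not confined to the members. With BMP-2+Dynasore represented by replicate 2 alone, 15 members were called higher and 3 lower than in Dynasore, beside 6.76% and 9.3% of all tested probes, and with replicate 1 alone 0 were called. With replicate 1 alone very few of all tested probes were called either, so that 0 is no result about the members. The median of the members there was 0.09, beside 0.0005 for all tested probes. The part of the shared array pattern in these values was not tested.

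The interaction, which asks whether dynasore changed the response to BMP-2, gave 46 called members with replicate 2, 19 higher and 27 lower, beside 56.2% of all tested probes. Its direction turned with the scaling. On the authors' values it had a median of 0.07 for the members and -0.71 for all tested probes, and with equal medians -0.21 and 0.11. With replicate 1 it gave 0 by limma, beside 1.09%, and with all 8 arrays 0, beside 0% (0 members at an unadjusted p under 0.05).

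Genes that build, feed and steer the chain were read from lists by the same 7-array fit. The shares to set the counts in Dynasore against DMSO against are again 19.5% of all tested probes lower and 17.9% higher. Over the 94 tested genes of all lists, 25 were lower (26.6%) and 15 higher (16%). With all 8 arrays 1 of the 94 was lower (Cox14) and 1 higher (Egln3), so every other call of a listed gene in this comparison was lost there. In Dynasore against DMSO, 8 of 15 tested genes of the tricarboxylic acid cycle and its entry fell (53.3%) and 0 rose (limma), with a median of -0.32. With all 8 arrays 0 of the 15 passed (lowest adjusted p = 0.15, Idh3a). The largest were Idh3a (-0.90 ± 0.15), a subunit of the NAD-linked isocitrate dehydrogenase, Dlat (-0.84 ± 0.19), the acetyltransferase of pyruvate dehydrogenase, and Idh2 (-0.70 ± 0.15), the NADP-linked isocitrate dehydrogenase. Citrate synthase (Cs) was at -0.38 ± 0.10. In BMP-2+Dynasore against DMSO 8 of the 15 also fell.

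Assembly factors varied by complex. For complex IV, 6 of 16 fell (37.5%), led by Cox14 (-1.26 ± 0.12), Cox20 (-1.05 ± 0.14) and Coa3 (-0.95 ± 0.13), which act on the Cox1 and Cox2 subunits as they are made, and Lrpprc, which stabilizes mitochondrial messenger RNA, rose (0.58 ± 0.18). Cox14 gave 10.89 and 10.67 in Dynasore against 12.00 and 12.08 in DMSO and passed with all 8 arrays (adjusted p = 0.019), where Cox20 was at an adjusted p of 0.18 and Coa3 at 0.15. For complexes II and III 4 of 8 fell: Sdhaf3 (-0.98 ± 0.18), Sdhaf4 (-0.82 ± 0.16), Sdhaf1 (-0.63 ± 0.15) and Uqcc2 (-0.42 ± 0.10). Thus 3 assembly factors of complex II passed while none of its 3 subunits did, a difference that was not tested. For complex I 1 of 10 fell, Ndufaf1, which gave 8.14 and 8.16 in Dynasore against 9.66 and 9.59 in DMSO (-1.47 ± 0.15; with all 8 arrays, adjusted p = 0.067). Of 3 tested for the ATP synthase, Atpif1, its inhibitor, fell (-0.68 ± 0.10) and Atpaf2, an F1 assembly factor, rose (0.75 ± 0.13).

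Among 14 electron carriers and feeders 1 rose (7.14%) and 3 fell (21.4%), with the falls near the share of all tested probes and the rises below it, so the counts are no result about that list. Coq10b, a coenzyme Q binding protein, was at 1.52 ± 0.17 (with all 8 arrays, adjusted p = 0.060), and Coq7 (-0.71 ± 0.15), Etfb (-0.59 ± 0.11) and Gpd2 (-0.55 ± 0.12) were lower. Of 5 nucleotide, phosphate and pore carriers, the porins Vdac1 (0.75 ± 0.13) and Vdac3 (0.52 ± 0.13) rose and 0 fell (limma), and with all 8 arrays neither passed (lowest adjusted p = 0.84).

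Of 15 tested regulators of mitochondrial genes, 5 were higher (33.3%) and 2 lower (13.3%), and 0 passed with all 8 arrays (lowest adjusted p = 0.091, Ppargc1b). Gabpa, the ETS-domain subunit of GABP, gave 7.16 and 7.28 in Dynasore against 6.15 and 6.31 in DMSO (0.99 ± 0.16, adjusted p = 0.0007), and its partner Gabpb1, the RNA polymerase cofactor Tfb2m, Mterf3 and Tfam rose by 0.49 to 0.55. Ppargc1b, a coactivator of the PGC-1 family, gave 6.61 and 6.38 against 8.12 and 8.25 (-1.69 ± 0.16, adjusted p = 2.1e-05). The mitochondrial RNA polymerase Polrmt was at -0.48 ± 0.12.

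Of 8 tested oxygen-sensitive genes with a part in the control of respiration, 5 rose (62.5%) and 0 fell (limma). Egln3, a prolyl hydroxylase induced by low oxygen, gave 11.54 and 11.58 in BMP-2+Dynasore, 11.86 and 12.15 in Dynasore, 6.63 and 7.15 in BMP-2+DMSO, and 7.56 and 7.72 in DMSO. Its dynasore arrays lay far above the rest, at 4.36 ± 0.13 in Dynasore against DMSO (adjusted p = 5.3e-09; with all 8 arrays, 0.0019). Pdk1, a kinase that shuts off pyruvate dehydrogenase, was at 1.88 ± 0.11 and Mxi1, a Myc antagonist, at 1.32 ± 0.17, with adjusted p of 0.28 and 0.072 in the fit to all 8 arrays. In BMP-2+Dynasore against DMSO 4 of the 8 rose.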

How the data were processed

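RNA of 8 C2C12 samples (2 in each of 4 groups) was labelled with biotin and hybridised to Illumina mouse BeadChips. The authors processed the scans in BeadStudio 3.0, and the deposited values are linear probe intensities after rank invariant normalization, some of them below 0. A second, non-normalized table was not used, because its 16 columns (8 numbered signals and their detection p-values) could not be tied to samples. Probes were named from GEO's platform annotation, in which 16886 of 18138 have a symbol and 1252 have none.

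From the deposited intensities, values were background-corrected with normexp (offset 16), quantile normalized over 8 arrays and put on the log2 scale. The background limit of each array lay 1.645 SD above the peak of its dimmest signals. Groups were compared with limma 3.58.1 in R 4.3.3 (lmFit and eBayes with trend and robust, 3 residual degrees of freedom from 7 arrays), two-sided, with Benjamini-Hochberg adjustment over the 10244 tested probes and a threshold of 0.05. SE is the moderated standard error of a log2 difference. Counts at an unadjusted p are given without the share of all tested probes and are no result about the members. The number of arrays limits the precision. The script was tested on simulated data with 200 changed probes.

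Genes were named by rule: up to 4 largest called rises and falls per complex in Dynasore against DMSO, all of complex II, the complex IV isoform pairs, matches that are not subunits of the complex in their name, and up to 3 called genes per list; others were added as examples after their values were seen. The members and lists were chosen with earlier results of these data known. The main fit has no replicate block. Alternatives covered the arrays, background correction, normalization, filter, variance model, test, a replicate block and left-out arrays. Promoters and gene starts come from RefSeq (GRCm38.p6).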

Additional observations from a re-analysis of the deposited data

Results flagged for a closer look

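The response to BMP-2 differed between cells with and without dynasore for 46 members in the test of the difference itself, when BMP-2+DMSO was represented by replicate 2. With replicate 1 in its place and with all 8 arrays the count was 0. With replicate 2 most of all tested probes were called as well, as given above. The median difference (the BMP-2 effect with dynasore minus that without) was -0.19 for the members and -0.19 for all tested probes. The calls with replicate 2 rest on that array and are no result about the members. Among the named members the difference with replicate 2 was positive for Cox7a2l (3.08), Ndufb7 (2.75), Sdhb (2.63), Cox6a1 (2.21), Cox6b1 (1.38) and Atp5l (1.21). It was negative for Sdhd (-1.86), Cox7a1 (-1.49), Cox7a2 (-1.33), Ndufs5-ps (-1.06), Atp5mpl (-0.76), Uqcr10 (-0.53), Ndufa13 (-0.51), Ndufa4 (-0.45) and Uqcr11 (-0.42). With replicate 1 the same differences were 0.14 for Ndufb7, -0.04 for Sdhb and -0.28 for Cox7a2l, and none of the 15 passed the threshold. Groups of 2 are too small for a search for single outlying samples.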

How the results depend on the processing

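With all 8 arrays the number of members called was 1 in Dynasore against DMSO, 0 in BMP-2+Dynasore against DMSO, 0 in BMP-2+DMSO against DMSO, 2 in BMP-2+Dynasore against BMP-2+DMSO and 0 in the interaction, against 35, 32, 57, 63 and 46 with 7 arrays. When replicate 1 stood for BMP-2+DMSO, the last 3 were 0, 16 and 0, while Dynasore against DMSO kept 35 calls in number. In BMP-2+Dynasore against DMSO the count was 12 with arrays scaled to equal medians and 12 without trend and robust. In each, 10 of 71 members were lower, beside 1795 of 10244 tested probes. The count was 13 under the methods' one-way test with its 1.4-fold limit, with 11 members lower, beside 1559 probes. In none of these settings were members clearly more often lower than all tested probes, so the excess of the main fit was not kept. The one-way test gave 1 in BMP-2+Dynasore against Dynasore and cannot be formed for the interaction. Leaving out 1 array at a time gave 22 to 47 calls in Dynasore against DMSO, 8 to 36 in BMP-2+Dynasore against DMSO, 50 to 61 in BMP-2+DMSO against DMSO, 62 to 65 in BMP-2+Dynasore against BMP-2+DMSO, 0 to 18 in BMP-2+Dynasore against Dynasore and 40 to 52 in the interaction. Same-numbered replicates deviated together in BMP-2+Dynasore and BMP-2+DMSO (correlation 0.502) and not in the other 5 pairs of groups (-0.279 to 0.002). The labels do not say what a shared replicate number stands for, and a shared batch was not tested. The replicate block gave 35, 32, 51, 61, 0 and 43 calls, and the fit to 6 arrays without BMP-2+DMSO, chosen after seeing the data, 35, 31 and 0 in the comparisons it allows. The authors' values without further normalization put the median of all probes at 0.17 in BMP-2+Dynasore and at 0.82 in BMP-2+DMSO against DMSO. Of 934 values of named members under the alternatives, 805 kept direction and side of the threshold, 111 lost the call, 12 gained it and 6 changed sign. The 805 include all 52 of the swap to replicate 1 and all 52 of the 6-array fit. In both, the arrays compared and those that set the spread stayed the same. All sign changes were in BMP-2+Dynasore against DMSO and near 0. Sdhc was 0.026 with equal medians and 0.03 without DMSO replicate 2, 0.074 without BMP-2+Dynasore replicate 1 and -0.1812 without replicate 2. Cox4i1 was 0.0008 with equal medians, 0.0017 without BMP-2+Dynasore replicate 1 and -0.1048 without replicate 2. Sdhd was -0.0756 without BMP-2+Dynasore replicate 2 and 0.6289 without replicate 1. The causes were not tested.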
